A study of Mus musculus with 721 samples.

Results

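The cells described here are epiblast cells of early streak mouse embryos with T, the gene of the transcription factor Brachyury, above a set level. Beside them are epiblast cells of the same embryos with little or no T. They were chosen from the cells titled E6.5 or E6.75 without a plate name. A cell was kept if Mesp1 was below 10 CPM (counts per 1000000 counts of the cell) and if the mean log2(CPM + 1) of 6 visceral endoderm genes (Apoa1, Ttr, Cubn, Dab2, Amn and Apoc2) was not above that of 3 epiblast genes (Pou5f1, Tdgf1 and Dnmt3b). Cells with T at 10 CPM or more were called T-positive, those below it T-negative, and only embryos holding both were used. This gave 71 cells of the 721 in the series, 18 T-positive and 53 T-negative, from 3 embryos: 10 and 43 from E6.75 embryo 1, 7 and 7 from E6.75 embryo 2, and 1 and 3 from E6.5 embryo 1. All embryos were wild-type C57Bl/6Babr with no treatment. The embryonic ectoderm was cut from embryos staged by eye as early streak and taken apart into cells, and polyadenylated RNA of each picked cell was amplified by the G&T-seq and Smart-seq2 chemistry. The study as a whole follows cells from E3.5 to E6.5, and the comparison asks what goes with T in epiblast cells low in Mesp1.

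At gastrulation, cells on the posterior side of the epiblast form the primitive streak, move through it and become mesoderm and endoderm. T is a T-box factor switched on there by Wnt signalling, with Nodal upstream in the epiblast and FGF needed for cells to move away. Evx1 is a homeobox factor of the posterior streak, Fgf8 a secreted ligand of the streak and Sp5 a zinc finger factor that is a direct Wnt target. Mesp1 comes on in mesoderm as cells leave, so cells with T and without Mesp1 are taken here as early on this path, though their order in time was not measured.

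Because T, Evx1 and Sp5 are the markers this comparison turns on, the sequence around their starts is shown, from RefSeq on build GRCm38.p6, plus strand for all of them. The windows run from 250 bases before to 50 after the annotated start, at chr17:8434173-8434472, chr6:52313248-52313547 and chr2:70474673-70474972. Capitals mark the TCF and LEF core CTTTGA, through which Wnt acts, and the T-box core CACACCT, each on either strand.
T: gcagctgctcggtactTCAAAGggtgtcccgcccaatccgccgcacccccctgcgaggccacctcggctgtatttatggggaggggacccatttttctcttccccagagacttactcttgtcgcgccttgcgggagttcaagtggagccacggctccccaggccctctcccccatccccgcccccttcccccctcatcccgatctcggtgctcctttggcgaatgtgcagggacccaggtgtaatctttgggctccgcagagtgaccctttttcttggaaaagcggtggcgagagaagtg
Evx1: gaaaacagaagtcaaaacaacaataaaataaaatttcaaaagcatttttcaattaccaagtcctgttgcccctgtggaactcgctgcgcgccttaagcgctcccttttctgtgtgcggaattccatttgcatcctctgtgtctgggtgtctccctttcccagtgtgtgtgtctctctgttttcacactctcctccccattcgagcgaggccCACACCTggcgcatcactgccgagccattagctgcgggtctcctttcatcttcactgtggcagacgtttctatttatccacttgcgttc
Sp5: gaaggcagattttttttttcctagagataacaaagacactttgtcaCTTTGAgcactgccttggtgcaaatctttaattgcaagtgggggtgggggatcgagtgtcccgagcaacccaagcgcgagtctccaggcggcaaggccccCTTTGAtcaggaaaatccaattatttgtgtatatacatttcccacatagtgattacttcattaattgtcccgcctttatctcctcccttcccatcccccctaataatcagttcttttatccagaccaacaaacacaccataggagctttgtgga
The T window held 1 TCF and LEF core, 234 bases before the start and the Sp5 window held 2, the first 204 bases before it and the other nearer to it. The Evx1 window held 1 T-box core, 39 bases before the start. Of 32851 promoter windows of the same length, 16% held the TCF and LEF core and 5.84% the T-box core. A FoxH1 core (TGTNNATT, in 12.2% of windows) and a TATA box (TATAAA, in 13.6%) were in none of the 3, nor in that of Eomes, which also had no TCF and LEF or T-box core. The motif letters were settled with these sequences in view, and a match is a string of letters, not a shown binding site. The table holds 4 of the 8 genes looked up, and those of Fgf8, Mixl1, Olig1 and Ccnd2 are not shown.

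T (chromosome 17, 8434423 to 8442496, GRCm38) ranged from 16.1 to 254 CPM in T-positive cells, with a median of 49.8. The cells nearest the limit were at 16.1, 20.0 and 22.5 CPM inside it and at 9.42, 9.21 and 7.49 CPM outside it. Of the T-negative cells, 10 of 53 had any count of T, and the fewest counts of T in a T-positive cell were 5. Most T-positive cells (16 of 18) had no count of Mesp1, the highest level being 8.93 CPM. After adding up the counts of each class within an embryo and normalising the sums (normalised CPM below), T was at 37.8, 69.1 and 71.1 in T-positive sums against 0.241, 0.588 and 0.518 in T-negative sums of E6.5 embryo 1, E6.75 embryo 1 and E6.75 embryo 2, the order kept throughout. The rule fixes that gap, so it carries no test.

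Total counts of the 71 cells ran from 66896 to 1812332 (median 497704), and 5812 genes or more were detected in each. Within embryos, T-positive cells had a log2 median total count lower by 0.182 ± 0.417 (SD, n = 3 embryos, exact permutation test within embryos, two-sided, p = 0.750), and 136.5 more genes at the median (SD 160.7, p = 0.500 by the same exact test). With 3 embryos this test cannot go below p = 0.250. The only T-positive cell of E6.5 embryo 1 was a well labelled double, as were 2 T-negative cells. Of the 8 epiblast markers, 3 belong to the rule and cannot check the label. The other 5 (Utf1, Pou3f1, Otx2, Sox2 and Fgf5) summed to 319.33, 855.22 and 1030 CPM in T-positive cells and to 993.67, 983.04 and 813.11 CPM in T-negative cells, with none at 0. In the cells that the rule placed in the endoderm of the same embryos they summed to 346.49, 123.52 and 340.86 CPM. The label thus held by these genes in both E6.75 embryos and in the T-negative cells of E6.5 embryo 1. The lone T-positive well of E6.5 embryo 1 was below the endoderm cells of its embryo in these 5 genes, while 13 endoderm genes outside the rule summed to 1790 CPM in it and to 21300 CPM in those cells. Values without E6.5 embryo 1 are given beside the markers and some of the other genes with a wide gap in it. Intervals and limits on counts cover counting error only, because amplified reads without molecular identifiers are not independent molecules.

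Evx1 (chromosome 6, 52313498 to 52318378) reached 10 CPM in 9 of 18 T-positive cells and in 5 of 53 T-negative cells. The share was 100%, 50% and 42.9% of T-positive cells against 0%, 9.30% and 14.3% of T-negative cells in the 3 embryos. It was higher in all 3 embryos, by 56.4 percentage points on average (SD 38.2, exact permutation test, two-sided, p = 0.250, the smallest possible, adjusted over the 3 genes p = 0.750). Without E6.5 embryo 1 the difference was 34.6 points. In the sums the order was less even, with 93.3, 18.9 and 14.9 normalised CPM in T-positive cells against 0, 2.98 and 17.9 in T-negative cells. The last embryo ran the other way, with a single T-negative cell at 52.9 CPM and the other 6 at 0.

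Fgf8 (chromosome 19, 45736798 to 45742915) was on in every T-positive cell and in most T-negative ones, 44 of 53. Its share with at least 10 CPM was 66.7%, 81.4% and 100% in T-negative cells, so the share could differ little (17.3 points, SD 16.7, exact permutation p = 0.500, and 9.30 points without E6.5 embryo 1). The level differed more. Sums were at 633.5, 109.5 and 91.3 normalised CPM in T-positive cells against 13.5, 45.8 and 45.3 in T-negative cells. All 3 T-positive sums lay above all 3 T-negative sums, the widest gap being that of the lone T-positive well of E6.5 embryo 1. This only describes these values, since the share of all genes with such sums was not counted.

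Sp5 (chromosome 2, 70474923 to 70477729) did not follow T in this way. It reached 10 CPM in 4 of 18 T-positive and 6 of 53 T-negative cells, with shares of 0%, 10% and 42.9% against 66.7%, 4.65% and 28.6%. The mean difference of -15.7 points (SD 44.4, exact permutation p = 1.0) took its sign from E6.5 embryo 1, whose lone T-positive well had 9.83 CPM. Without that embryo it was 9.82 points, and with a limit of 5 CPM it was 24.3 points. Sums were 10.5, 3.12 and 12.3 normalised CPM against 11.3, 2.31 and 3.88.

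Counted together, 0 of 18 T-positive cells had none of Evx1, Fgf8 and Sp5 at 10 CPM, 8 had 1 of them, 7 had 2 and 3 had all 3. Among the 53 T-negative cells these numbers were 8, 35, 10 and 0. For reference, in 259 cells titled E5.5 that the same rule does not place in the endoderm, T reached 10 CPM in 2 cells, Evx1 in 0 (exact binomial 95% interval up to 1.41%), Sp5 in 2 and Fgf8 in 48. In 14 cells that the rule placed in the endoderm in embryos without a plate name, with a median of 829254.5 counts, T reached 10 CPM in 3, Evx1 in 5, Sp5 in 5 and Fgf8 in 4. These cells also held Mixl1 and Wnt3 in 11 of 14 and Eomes in 13 of 14, so they are no background level for streak genes. The 5 with Evx1 came from the E6.75 embryos, 2 of 5 cells in embryo 1 and 3 of 4 in embryo 2. In E6.75 embryo 2 that share of 75% was above the 42.9% of T-positive cells.

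**Figure D1:**
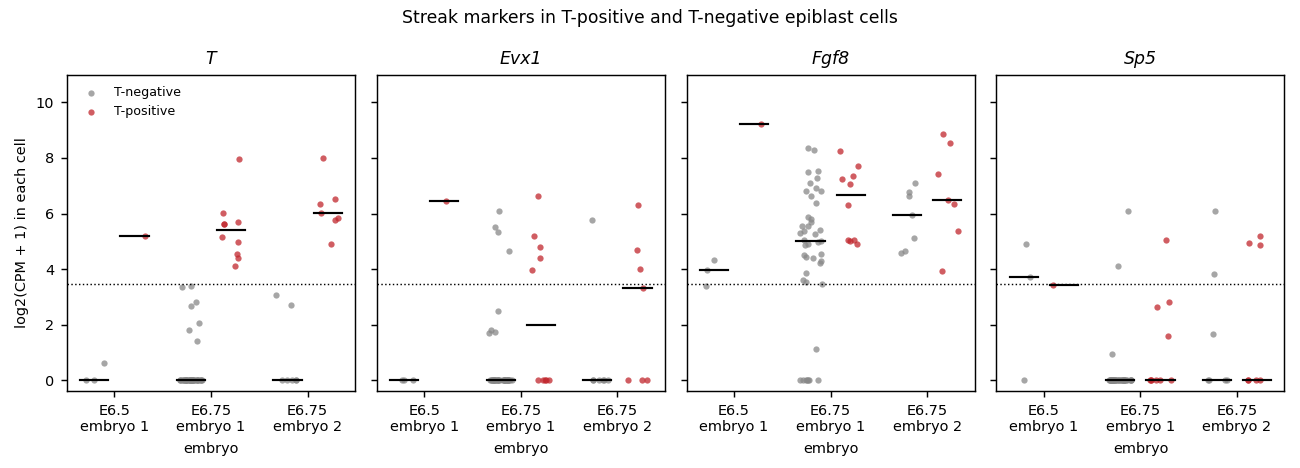
Levels of T, Evx1, Fgf8 and Sp5 as log2(CPM + 1) in each T-negative (grey) and T-positive (red) cell of the 3 embryos. Black bars are medians and the dotted line is 10 CPM, and the panels for Evx1 and Sp5 show many cells at 0 in both classes, while Fgf8 is on in all 18 T-positive cells.

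T-positive cells differed widely among themselves. The 9 with Evx1 at 10 CPM or more had medians of 172.6 CPM of Fgf8, 362 of Eomes, 94.7 of Wnt3, 38.3 of Axin2, 61.3 of Nodal and 179.4 of Nanog. The 9 without it had medians of 40.2, 97.8, 27.6, 0, 8.93 and 59.2 CPM of the same genes, so all 6 medians were lower. The ranges overlapped for each of them, for Eomes from 75.5 to 717.5 CPM against 13.3 to 767.8 CPM. Median T was 63.3 and 48.4 CPM. This split was made after the values were seen and comes with no test, and the cells share embryos and depth.

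The sums of counts were compared between the classes with the embryo as a block (quasi-likelihood test of edgeR, p adjusted by Benjamini-Hochberg). No gene passed an adjusted p of 0.05 with a log2 fold change over 1, which is 0 of 10253 tested (0% higher, 0% lower), the smallest adjusted p being 0.999. At an unadjusted p below 0.05 there were 258 genes (2.52%), with 1.19% higher and 1.33% lower in T-positive cells. DESeq2 called 2 higher, Olig1 and Ccnd2, and 2 lower, Ak3 and Tmem219. By sign alone, 11.1% of genes were higher and 15.1% lower in T-positive cells in all 3 embryos, and the median log2 fold change was -0.07. The share of all genes whose sums did not overlap between the classes was not counted. Where sums of a gene are said not to overlap, this only describes its values. The p-values below are unadjusted, from the edgeR fit unless said otherwise, and every adjusted p is 0.999 or above in it. The 11 genes of the rule were left out of these counts. The filter on low counts asks for enough counts in as many sums as 1 class has. A gene low in 1 class can thus enter through the other class alone, and the filter then favours its direction. The counts and medians of the lists below include such genes.

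Of the 18 streak and mesendoderm transcription factors, 10 were tested and 0 were called. Their median log2 fold change was 0.87, and 4 were higher in all 3 embryos with 0 lower in all 3, against the 11.1% and 15.1% over all genes. Eomes, Mixl1 and Snai1 were among them, Snai1 named after its values were seen. Eomes, a T-box factor needed for mesoderm and endoderm, was at 262.2, 246.2 and 173.1 normalised CPM in T-positive sums and at 105.7, 113.6 and 121.4 in T-negative sums. The classes did not overlap, with a log2 fold change of 0.98 ± 0.25 (SE, p = 0.00526). Mixl1, a homeobox factor of the streak, was at 66.1, 60 and 73.3 normalised CPM against 1.93, 14.7 and 27.4. Again the classes did not overlap (log2 fold change 2.65 ± 0.80, p = 0.0115). In single cells Mixl1 reached 10 CPM in 15 of 18 T-positive and 20 of 53 T-negative cells. Evx1 had a log2 fold change of 3.00 ± 1.89 (p = 0.152). Without E6.5 embryo 1 the log2 fold changes of Eomes, Mixl1 and Evx1 were 0.82, 1.73 and 1.21. Snai1, which represses E-cadherin, was at 6.29, 12.3 and 14.9 normalised CPM against 3.38, 3.92 and 1.29.

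Of the 23 Wnt ligands, targets and feedback inhibitors, 16 were tested, 0 were called, and the median log2 fold change was 0.21. Members higher in all 3 embryos were 4, and 2 were lower in all 3. Wnt3, the ligand that starts the streak, was at 86, 64.5 and 44.8 normalised CPM in T-positive sums against 1.45, 14.5 and 46.3 in T-negative sums, so E6.75 embryo 2 showed no difference (log2 fold change 2.38 ± 1.11, p = 0.0656). In single cells Wnt3 reached 10 CPM in 14 of 18 and 21 of 53. By embryo the shares were 100%, 80% and 71.4% against 0%, 34.9% and 85.7%, so E6.75 embryo 2 ran the other way. Axin2, a feedback inhibitor used as a readout of Wnt signalling, was at 32.5, 24.2 and 36.5 normalised CPM against 0, 10.1 and 10.9 (p = 0.0973). These sums did not overlap. Nkd1, another feedback inhibitor, was at 7.34, 5.53 and 14.7 against 0.965, 1.77 and 0.259. It passed the filter on low counts through its T-positive sums alone, so its values are given without a test. Wnt8a and Tcf7 were the others higher in all 3, and Sfrp1 and Lef1 were lower in all 3, all of them named after their values were seen. Lef1, a factor that binds the TCF and LEF core, was at 40.9, 58.4 and 45.5 normalised CPM against 64.7, 59.7 and 102.7. Without E6.5 embryo 1, Wnt3 and Axin2 had log2 fold changes of 1.06 and 1.5 in place of 2.38 and 2.84. The list did not move one way.

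**Figure D2:**
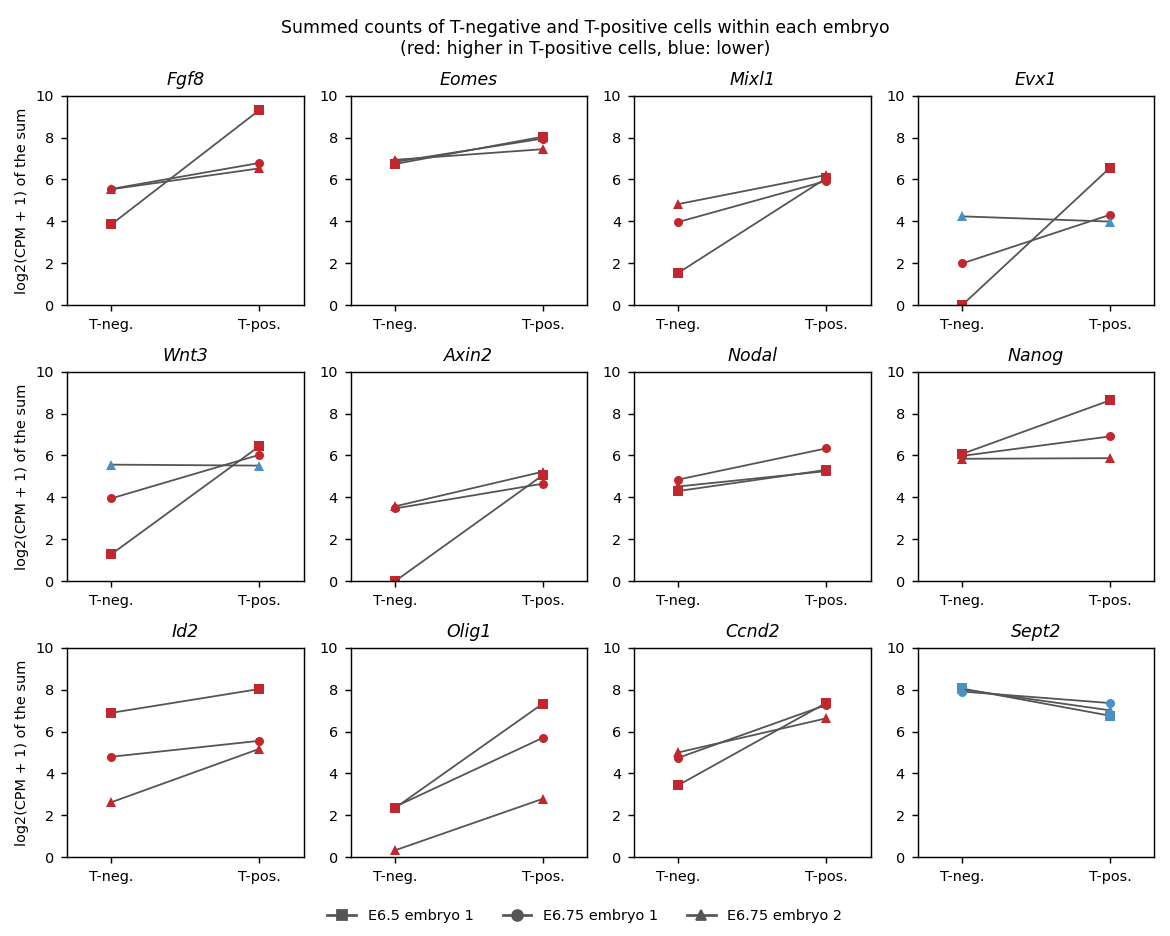
Each panel gives log2(CPM + 1) of the normalised summed counts of 1 gene in T-negative (left) and T-positive (right) cells, with a line for each of the 3 embryos. Fgf8, Eomes, Mixl1, Axin2, Nodal, Nanog, Id2, Olig1 and Ccnd2 are higher in T-positive cells in all 3 embryos, Evx1 and Wnt3 in 2 of 3, and Sept2 is lower in all 3.

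For the Nodal pathway, 18 of 18 members were tested, 0 were called and the median log2 fold change was -0.01. Nodal itself, the ligand that patterns the epiblast, was at 38.8, 80.1 and 37.2 normalised CPM in T-positive sums against 18.8, 27.9 and 22 in T-negative sums. Its T-positive sums lay above all T-negative ones (log2 fold change 1.11 ± 0.52, p = 0.0651). The list as a whole had no common direction, with 9 of 18 members at a log2 fold change above 0. In all 3 embryos 2 members were higher and 4 lower, beside 11.1% and 15.1% of all genes. The 4 lower were Acvr1b, Acvr2a, Skil and Smad4. Skil, a corepressor of Smad proteins, had a log2 fold change of -0.49 ± 0.24 (p = 0.0807). Smad3 was at 0, 5.81 and 0.237 normalised CPM against 7.72, 4.47 and 33.1, with a log2 fold change of -4.03 ± 2.42 (p = 0.136), and was lower in T-positive cells in 2 of 3 embryos. Acvr1b, Acvr2a and Smad4 were named after their values were seen.

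For BMP, 11 of 17 members were tested, 0 were called and the median log2 fold change was 0.37. Id2, a target that inhibits helix-loop-helix factors, was at 260.1, 46.1 and 35.1 normalised CPM in T-positive sums against 117.7, 26.8 and 5.18 in T-negative sums (log2 fold change 1.49 ± 0.44, p = 0.0108). The embryos differed more than the classes did, and each embryo had the higher value in its T-positive cells. Id1 was higher in 2 of 3 embryos (log2 fold change 0.74 ± 0.43, p = 0.124). Smad6, an inhibitor of the pathway, had few counts, with 11.5, 4.82 and 2.61 normalised CPM against 0.483, 2.20 and 0. It too passed the filter on low counts through its T-positive sums alone, and is given without a test.

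For FGF, 17 of 20 members were tested, 0 were called and the median log2 fold change was -0.12. In all 3 embryos 2 members were higher and 1 lower. Among the ligands, Fgf8 had a log2 fold change of 2.35 ± 0.86 (p = 0.0271), which was 1.14 without E6.5 embryo 1, and Fgf17 one of 2.5 ± 1.33 (p = 0.0986). Fgf17 was at 52.4, 13.6 and 0.711 normalised CPM against 2.65, 2.82 and 0.518, so the last embryo had almost none in either class, and without E6.5 embryo 1 its log2 fold change was 1.51. Etv5, a transcription factor that FGF signalling induces, had a log2 fold change of -0.32 ± 0.24 (p = 0.222), and Spry4, a feedback inhibitor, was lower in all 3 embryos (-0.86 ± 0.80, p = 0.314). Il17rd, which is known to restrain FGF signalling and is not in the list, was at 55.6, 37.7 and 96 normalised CPM against 6.76, 21.9 and 7.76 (log2 fold change 2.49 ± 0.74, p = 0.0106).

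Of 9 Notch and somite clock genes, 5 were tested, 0 were called and the median log2 fold change was 0.55. Hes1, Jag1 and Notch1 were each higher in T-positive cells in 2 of 3 embryos, with log2 fold changes of 0.50 ± 0.57, 1.74 ± 2.17 and 1.57 ± 1.71, all within 1 SE of 0.

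Of the 20 epiblast and anterior ectoderm factors, 18 were tested, 0 were called and the median log2 fold change was -0.16. A log2 fold change above 0 was found for 6 of them. In all 3 embryos 3 were higher and 4 lower, beside 11.1% and 15.1% of all genes. Nanog, a pluripotency factor that stays on in the posterior epiblast, was at 395.4, 119.3 and 57.6 normalised CPM in T-positive sums and at 66.3, 62.1 and 56.4 in T-negative sums. E6.75 embryo 2 showed next to no difference, and the log2 fold change was 1.17 ± 0.48 (p = 0.0404), or 0.50 without E6.5 embryo 1. L1td1, an RNA-binding protein of pluripotent cells, was lower in all 3 embryos at 158.4, 262.8 and 184.2 normalised CPM against 233.1, 309.4 and 446.7 (-0.69 ± 0.25, p = 0.0256). Utf1, a chromatin-bound factor of pluripotent cells, was lower in 2 of 3 embryos (-1.03 ± 0.65, p = 0.157). Without E6.5 embryo 1 its log2 fold change was -0.07. Pou3f1 and Zic2, factors of the anterior epiblast, were lower in all 3 (log2 fold changes -0.47 ± 0.33 and -0.65 ± 0.62), and were named after their values were seen, like Spry4 above and Epcam below. Among the genes of the rule, Pou5f1 was at 1700, 948 and 635 normalised CPM against 1380, 889 and 769, and Tdgf1, the Nodal coreceptor, at 1170, 536 and 487 against 439, 395 and 356. These levels, like Dnmt3b with a log2 fold change of -0.38, are given without a test.

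Among 21 genes of adhesion and of the epithelial to mesenchymal transition, 15 were tested, 0 were called and the median log2 fold change was -0.20. In all 3 embryos 2 members were higher and 4 lower. Cldn7, a tight junction protein, was at 73.4, 108.5 and 175.4 normalised CPM in T-positive sums against 178.5, 158.9 and 206 in T-negative sums (log2 fold change -0.67 ± 0.28, p = 0.0454). Itga6, a laminin receptor subunit, was lower in all 3 embryos (-1.14 ± 0.56, p = 0.0780). Without E6.5 embryo 1 the log2 fold changes of Cldn7 and Itga6 were -0.39 and -0.49. Mmp14, a membrane protease, was higher in all 3 (1.01 ± 0.57, p = 0.114). Epcam, an epithelial adhesion molecule, had a log2 fold change of -0.20 ± 0.17.

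Among 10 genes of polycomb repressive complex 2, 8 were tested, 0 were called and the median log2 fold change was -0.03. Aebp2, Rbbp4 and Suz12 had log2 fold changes of -1.17 ± 0.67, -0.32 ± 0.21 and 0.31 ± 0.34. That of Aebp2 was -0.58 without E6.5 embryo 1. Of 17 DNA replication genes, all tested, 8 were lower in all 3 embryos and 1 higher, with 0 called and a median log2 fold change of -0.25. That is 8 of 17 beside 15.1% over all genes. In the 2 plate embryos described below, the same list had a median of 0.11 beside -0.40 over all genes. There 4 members were higher and 4 lower in both embryos. Mcm6, a subunit of the replicative helicase, was at 245, 350 and 274 normalised CPM against 443, 404 and 393 (-0.52 ± 0.20, p = 0.0321), and Rrm2, which makes deoxyribonucleotides, had -0.61 ± 0.25 (p = 0.0390). Without E6.5 embryo 1 the log2 fold changes of Mcm6 and Rrm2 were -0.36 and -0.33. Cdc45, a part of the active form of that helicase, ran the other way at 94.4, 101.3 and 71.6 against 23.4, 41.3 and 54.9 (1.22 ± 0.43, p = 0.0230). Of 20 mitosis genes, all tested, 0 were called, 2 were higher and 2 lower in all 3 embryos, and the median was 0.14. Tpx2 and Bub1b had log2 fold changes of 0.52 ± 0.28 and 0.56 ± 0.34, and Bub1 had -0.53 ± 0.28.

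**Figure D3:**
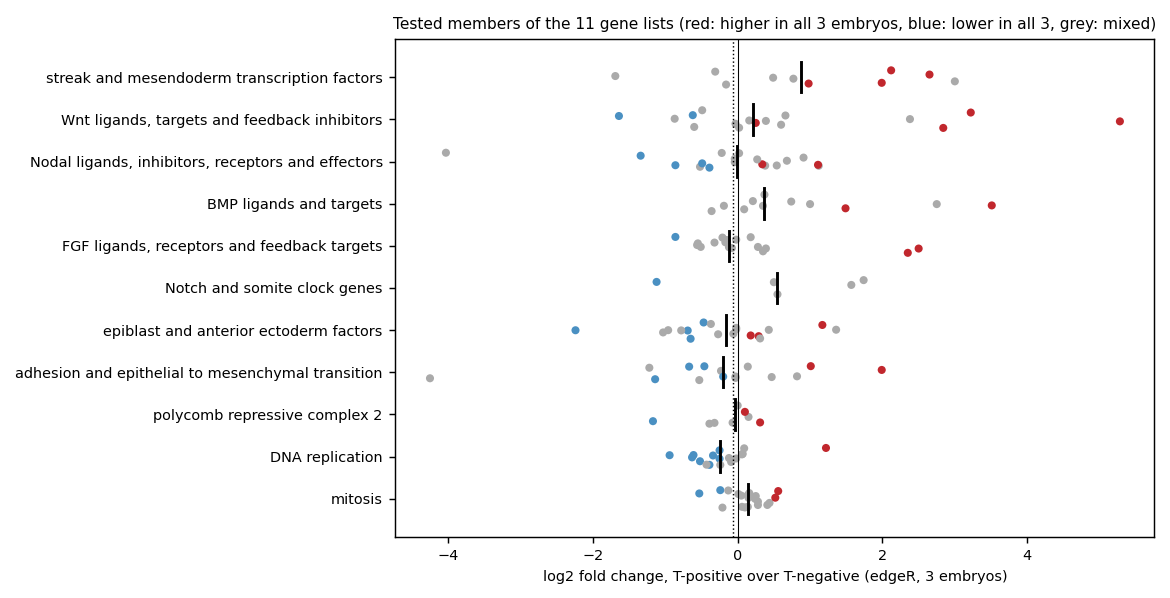
Log2 fold change (horizontal axis) of each tested member of the 11 lists (rows), with the list's median as a black bar and the median of all tested genes, -0.07, as a dotted line. The streak transcription factors lie furthest to the right with a median of 0.87, and 8 of 17 DNA replication genes are lower in all 3 embryos.

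Over all tested genes, the smallest p-values belonged to Olig1 and Ccnd2. Olig1 (chromosome 16, 91269772 to 91271933), a helix-loop-helix factor best known from the oligodendrocyte lineage, was at 160, 51.1 and 5.93 normalised CPM in T-positive sums. In T-negative sums it was at 4.10, 4.31 and 0.259, so all T-positive values lay above them, with a log2 fold change of 4.40 ± 0.69 (p = 2.67e-04). It reached 10 CPM in 8 of 18 T-positive cells, among them 2 of the 7 in E6.75 embryo 2, and in 8 of 53 T-negative cells. Levels among T-positive cells ran from 0 to 226 CPM. Of the 9 T-positive cells with Evx1, 6 had Olig1 at 10 CPM, and of the 9 without Evx1, 2 did.

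Ccnd2 (chromosome 6, 127125162 to 127152193), cyclin D2, was at 164.7, 153.6 and 98.2 normalised CPM in T-positive sums against 9.89, 25.9 and 31.1 in T-negative sums (log2 fold change 2.72 ± 0.50, p = 7.38e-04). All 18 T-positive cells had at least 10 CPM, from 15.6 to 501 with a median of 101.01, and 31 of 53 T-negative cells did, with a median of 21.5. The ranges of single cells overlapped, since T-negative cells reached 190 CPM. Both genes were called by DESeq2 (adjusted p = 2.93e-06 and 1.44e-04), without a filter on low counts (0.0102 and 0.00405) and without E6.75 embryo 2 (0.0138 and 0.0123). Over all alternatives their adjusted p reached 1.0, and without E6.5 embryo 1 their log2 fold changes were 3.86 and 2.13.

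The other genes with the smallest p among those higher in every embryo were Eomes, Zfp532, Smchd1, Relt, Phlda2, Il17rd, Tmem129 and Id2. Smchd1, a chromatin protein of the inactive X chromosome, was at 463.6, 352 and 267 normalised CPM against 153.7, 235.8 and 179.1 (log2 fold change 0.91 ± 0.26, p = 0.00840, and 0.58 without E6.5 embryo 1). Phlda2, an imprinted gene known for limiting placental growth, was at 116.4, 51.8 and 33.7 against 42.9, 17.3 and 11.6 (1.52 ± 0.44, p = 0.00922). Each embryo had about the same ratio. Zfp532, Relt and Tmem129 had log2 fold changes of 1.59 ± 0.43, 3.31 ± 0.96 and 2.32 ± 0.69.

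Among genes lower in every embryo, the smallest p belonged to Sept2, a septin of the cytoskeleton, at 106.97, 163.08 and 128.02 normalised CPM in T-positive sums against 264.4, 239 and 256.2 in T-negative sums (log2 fold change -0.95 ± 0.24, p = 0.00469). These sums did not overlap, and Sept2 was on in all 71 cells. Tbc1d13, Arl5c, Rnf10, Sdcbp, Rtf1, Zfp266, Fam108b and Cul5 followed, with log2 fold changes from -2.16 for Tbc1d13 to -0.75 for Cul5. That of Arl5c was -1.31, and -0.75 without E6.5 embryo 1. Ikzf4, a zinc finger factor of the Ikaros family, had 0 counts in all 18 T-positive cells and counts in 18 of 53 T-negative cells. It passed the filter on low counts through its T-negative sums alone, so its place among these genes is no support for a difference. Its T-negative sums were 13, 10.2 and 13.2 normalised CPM. A floor of 3 counts over all T-positive cells (0.246 CPM) lies 44.9-fold below the pooled T-negative level. That figure covers counting error of pooled reads only and does not bound the difference between cells. Of the 53 T-negative cells, 35 also had 0 counts of Ikzf4. Over the alternatives its log2 fold change ran from -9.85 to -2.19.

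Cells of the same embryos with both T and Mesp1 at 10 CPM or more were left out by the rule and are called Mesp1-positive below. They were 1 cell in E6.75 embryo 1 and 3 in E6.75 embryo 2. E6.5 embryo 2 had 23 of them, 7 T-negative cells and no T-positive cell without Mesp1, and so could not enter the comparison. Cells with Mesp1 at 10 CPM or more and T below 10 CPM were also left out, and are not in the values below. These were 2 in E6.75 embryo 2 and 3 in P1 embryo 3. Whether 1 class follows another in time was not tested. The values below are CPM of plain sums, chosen after values were seen, with no test. Ccnd2 was at 26.5, 156.03 and 586 CPM in T-negative, T-positive and Mesp1-positive cells of E6.75 embryo 1, and at 30.8, 98.3 and 192 in E6.75 embryo 2. In E6.5 embryo 2 it was at 7.71 CPM in T-negative and 260 in Mesp1-positive cells, so it was higher in each next class, in the order given, of these 3 embryos. P1 embryo 3, on a plate, also held all 3 classes, with 2 Mesp1-positive cells, and there Ccnd2 was lower in each, at 132.83, 78.8 and 53.3 CPM. Snai1 was at 4.01, 12.5 and 71.7 CPM in the same order in E6.75 embryo 1, at 1.28, 15 and 18.9 in E6.75 embryo 2, and at 0 and 109.7 in E6.5 embryo 2. In P1 embryo 3 it was at 0.294, 0 and 0 CPM.

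Sp5 and Mesp2 differed between embryos. In E6.5 embryo 2, Sp5 was at 58.2 CPM in Mesp1-positive cells, where all 23 had at least 10 CPM, and at 0 in T-negative cells. In the Mesp1-positive cells of the other embryos it was at 0 in E6.75 embryo 1, 12 in E6.75 embryo 2 and 5.20 in P1 embryo 3. Mesp2, a partner of Mesp1, had 0 counts in all 18 T-positive cells without Mesp1 and was at 93.6 CPM in Mesp1-positive cells of E6.5 embryo 2, 63.2 in the single one of E6.75 embryo 1 and 0 in those of E6.75 embryo 2. Olig1 was at 51.9 CPM in the T-positive and 0 in the Mesp1-positive cells of E6.75 embryo 1, at 5.93 and 12 in E6.75 embryo 2, and at 4.61 in the Mesp1-positive cells of E6.5 embryo 2. It had no common order. Nanog was at 36.5 CPM in Mesp1-positive and 93.3 CPM in T-negative cells of E6.5 embryo 2. It ran the other way in E6.75 embryo 1 (181.3 against 63.4 CPM), E6.75 embryo 2 (135.6 against 56 CPM) and P1 embryo 3 (204.2 against 71.8 CPM).

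**Figure D4:**
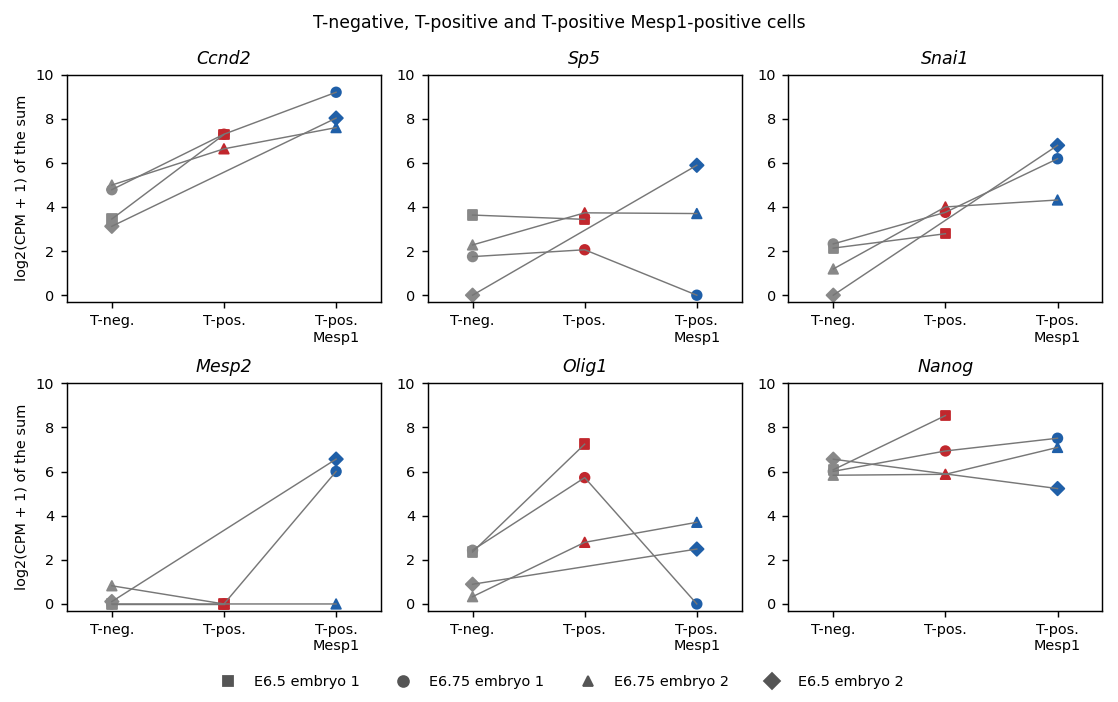
Plain summed counts as log2(CPM + 1) of 6 genes in T-negative cells (grey), T-positive cells without Mesp1 (red) and T-positive cells with Mesp1 (blue), with a line and a marker shape for each embryo. Ccnd2 and Snai1 are higher in each next class drawn of each of these 4 embryos without a plate name. P1 embryo 3 (not drawn) does not share this. Mesp2 is at 93.6 CPM in Mesp1-positive cells of E6.5 embryo 2, and Olig1 has no common order. E6.5 embryo 1 has no Mesp1-positive cell and E6.5 embryo 2 no T-positive cell without Mesp1.

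The same rule was applied to E6.5 embryos on plates P1, P2 and P3, whose cells are not among the 71. Only 2 of these 9 embryos held both classes, P1 embryo 3 with 5 T-positive and 13 T-negative cells and P2 embryo 5 with 1 and 10. The titles do not say whether E6.5 embryos 1 and 2 without a plate name are the embryos numbered 1 and 2 on plate P1. Those held 3 T-negative cells each and no T-positive cell, and were kept apart from them here. The T-positive cell of P2 embryo 5 had 11.6 CPM of T from 9 counts. Fgf8 was at 187.3 and 121.4 normalised CPM in T-positive against 146.1 and 114.9 in T-negative sums, and Evx1 at 2.87 and 5.72 against 0.469 and 0.284. Both were higher in each embryo (log2 fold changes 0.22 ± 0.63 and 3.38 ± 3.86), and neither difference exceeded its error. Of all genes tested on plates, 15.8% were higher in both embryos. Mixl1 was at 230.3 and 57.2 against 56.8 and 78.1, and Eomes at 152 and 80.1 against 109.8 and 164.2. In both, P1 embryo 3 had the higher value in T-positive cells and P2 embryo 5 in T-negative cells. Sp5 and Olig1 were at 0 in both T-positive sums.

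Ccnd2 was at 141.4 and 211.8 normalised CPM in T-negative cells on plates and at 82 and 250.7 in T-positive cells, with a log2 fold change of -0.27 ± 0.57 against 2.72 without plate name. The difference between the sets had an unadjusted p of 0.00411 for Ccnd2. It was not called for any of 9656 genes (0%), with 568 (5.88%) at an unadjusted p below 0.05. Plate and titled stage cannot be told apart for the E6.75 embryos, which were all without a plate name. Sept2 was lower in both plate embryos, at 358 and 329 normalised CPM against 471 and 904 (-0.93 ± 0.35, p = 0.00818). It was not called there, and 35.3% of all genes tested on plates were lower in both embryos.

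Of 9398 genes tested on plates, 0 were called higher and 2 lower (0.0213%), Gm10800 and Fdps, in the same edgeR fit. At an unadjusted p below 0.05, 71 were higher (0.755%) and 222 lower (2.36%), and DESeq2 called 12 higher and 4 lower. The median log2 fold change over all genes was -0.40. Fdps, an enzyme of isoprenoid synthesis, was at 251 and 6.87 normalised CPM in T-positive sums against 420 and 286 in T-negative sums (-2.74 ± 0.58, adjusted p = 0.00956 by edgeR). DESeq2 did not call it (-2.79, adjusted p = 0.188). Its change was -0.71 without P2 embryo 5, where the T-positive sum is 1 cell, and -5.36 without P1 embryo 3. Gm10800, a predicted gene whose counts may include reads of near-identical copies, was at 369 and 34.3 against 1040 and 1100 (-3.16 ± 0.39, adjusted p = 6.82e-12). Without the embryo as a block neither was called (adjusted p = 0.999 and 0.967 for Fdps and Gm10800 by edgeR). Neither had passed the test without plate name, where Fdps had -0.42 ± 0.21.

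The markers of other cells in these classes were as follows, in CPM of plain sums. The 19 visceral endoderm genes with a row summed to 2730, 988 and 5300 in T-positive against 4780, 1170 and 2210 in T-negative cells. Foxa1 was at 0 in all 6 sums. Of the 19, 6 belong to the rule, which limits them. The other 13 summed to 1790, 700.48 and 3090 against 2730, 783.30 and 1330. By both sums, E6.75 embryo 2 is the one with more of them in T-positive cells. There the definitive endoderm and axial mesoderm list, which shares Sox17 and Cer1 with that of visceral endoderm, was at 122.9 against 12.8. The 9 later mesoderm genes include Mesp1, which the rule limits. They summed to between 8.21 and 11.8 in T-positive and between 10.2 and 22.6 in T-negative cells, with Kdr and Pdgfra at 0 in all 6. The 8 extra-embryonic ectoderm genes ran from 7.36 to 75.7 against 19 to 152.2, and the 7 germ cell genes from 63.1 to 105.9 against 63.9 to 70.4, with Prdm14 at 0 in all 6. The T-positive cell on plate P2 had 12 of the 19 visceral endoderm genes at 0. The part of these cells in the results was not tested. A higher sum can come from more cells with the gene or from more RNA per cell, and the shares of cells above are the only values here that part them. Leaving out E6.5 embryo 1, whose T-positive sum is 1 double well, left 0 of 10965 genes called, and this is also the result within E6.75.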

How the data were processed

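Single-cell cDNA was read in pairs of 100 bp. The deposited tables hold unnormalised counts of reads on each gene, made by the authors by trimming (Trim Galore 0.4.3 in the submitters' processing notes), alignment to GRCm38 with HISAT2 2.0.5, a mapping quality of at least 20 and counting on genes in SeqMonk. The authors kept cells with at least 4000 genes and at most 10% mitochondrial reads. Of 24483 gene rows, 21730 matched 1 GENCODE M21 gene by symbol and chromosome. Titles gave the stage, plate and embryo of a cell, and whether its well was labelled double.

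Embryos are the replicates. Counts were summed per class and embryo over at least 1 cell, since a minimum of 2 or 3 left fewer than 3 embryos, and tested with edgeR 4.0.16 (TMM, filterByExpr, quasi-likelihood, embryo as a block) in R 4.3.3, with Benjamini-Hochberg adjustment over all tested genes other than the 11 of the rule. Calls needed both an adjusted p up to 0.05 and a log2 fold change beyond 1 in size. SE is the fold change divided by the root of F. Sums of the same embryo are paired by design, and their deviations from the class means correlated at 0.0803, 0.113 and 0.0353. Shares and depth were compared with exact permutation tests within embryos. Lists, members and limits were chosen with earlier results of these data known. In each list the text names called members, otherwise the 3 with the smallest p, and over all genes the 10 higher and 10 lower with the smallest p and the same sign in every embryo, and others are said to be named after their values were seen. Wells labelled double were kept, no doublet caller was run, and no pair of cells had identical counts. The edgeR test on sums was tried on simulated counts with known changes, and the other steps were not. DESeq2 1.42.0, limma 3.58.1, Python 3.11.15, scipy 1.17.1, pandas 2.3.3 and numpy 2.4.6 were also used. Alternatives covered tool, scaling, filter, block, thinning to 200000 counts, other limits and left-out embryos.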

Additional observations from a re-analysis of the deposited data

Results flagged for a closer look

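In groups of 4 to 10 cells of 1 class and embryo, 24 sets of values of T, Evx1, Fgf8, Sp5 and total count were looked at for a cell that stands apart by Dixon's criterion, and 11 did, where chance gives about 1 in 20 groups. Many groups are mostly at 0, where any cell with counts stands apart. Among T-positive cells, T stood apart at 247 CPM in E6.75 embryo 1 (next 63.3) and at 254 CPM in E6.75 embryo 2 (next 90.2), the latter in the cell with the fewest counts, 66896. Evx1 stood apart at 97.1 CPM (next 36), 78.5 CPM (next 25.1) and, on plate P1 embryo 3, 22.6 CPM (next 0), and Sp5 at 32.1 CPM (next 6.13) in E6.75 embryo 1. Among T-negative cells of E6.75 embryo 2, Evx1 stood apart at 52.9 CPM (next 0) and Sp5 at 67.4 CPM (next 13). In the T-negative cells of P2 embryo 5, T stood apart at 9.07 CPM, Evx1 at 3.40 CPM and Sp5 at 2.27 CPM, each with the next cell at 0. The Evx1 cell at 52.9 CPM decides that the T-negative sum of its embryo exceeds the T-positive one.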

How the results depend on the processing

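Without plate name, edgeR called 0 genes, DESeq2 called 4, no filter on low counts 2, and leaving out 1 embryo gave 0 to 2, the 2 being Olig1 and Ccnd2 without E6.75 embryo 2. All other alternatives gave 0, the fit with no replicate block included, so the pairing by embryo changed no call there (106 genes higher and 130 lower at an unadjusted p below 0.05 without it). On plates, edgeR called 2, DESeq2 16 and the fit with no replicate block 0. Without P1 embryo 3 the difference between the sets gave 270 called genes in place of 0, and leaving out any of the other embryos 0, so that 270 rests on the single T-positive cell of P2 embryo 5. The Sp5 share, -15.7 points, became 22.1 at 1 count or more, 24.3 at 5 CPM, 0.971 at 20 CPM, 9.70 without doublets, and 23.9 and 23.6 after thinning with the classes kept and set again, and ran from -30.7 to 9.82 points when 1 embryo was left out. The depth difference ran from -0.396 to 0.0212 (log2) when 1 embryo was left out, and the difference in genes detected was -67.5 with a T limit of 5 CPM. Gm10800 without plate name was 0.41 with no replicate block, Rrm2 was 0.09 as a limma mean over cells, and Jag1 ran from -0.02 to 2.84 when 1 embryo was left out. On plates, where leaving out 1 embryo leaves no test, Ccnd2 ran from -0.75 to 0.26, Eomes ran from -1.02 to 0.51 and Mixl1 from -0.44 to 2.06. The causes were not tested. With 3 embryos, 1 of them with 1 T-positive well, the shares cannot reach p below 0.250.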
